A study of Rattus norvegicus with 4 samples.

Results

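The microRNAs (miRNAs) of blood leukocytes were followed in the callus, the tissue that forms at a healing fracture. They were rno-miR-223-3p, rno-miR-142-3p, rno-miR-142-5p and rno-miR-150-5p, written without the species prefix where they recur. These 4 of the 727 rat miRNAs on the array were taken by name, as the miRNAs of myeloid cells, of leukocytes in general and of lymphocytes, and all 4 were detected on every array. The animals were 12-week-old male Sprague-Dawley rats. Diabetic rats had received 1 intravenous injection of 40 mg/kg streptozotocin, which destroys pancreatic beta cells, and had a blood glucose above 300 mg/dl, whereas control rats had received sodium chloride and had normal glucose. All rats in both groups then had a wire placed in the canal of the right femur and a closed transverse fracture of its shaft.

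The callus was taken on day 11 or day 5 after the fracture, with 5 animals combined into a single pool per array. The 4 groups, each with 1 array and therefore with no replicate, were diabetic day 11, control day 11, diabetic day 5 and control day 5. Each comparison sets 1 array against another, so no p-value is given, and the spread between animals is unknown. Streptozotocin makes beta-cell loss by a drug rather than by autoimmunity, and an effect of the drug and one of high glucose cannot be told apart here.

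Blood cells reach a fracture through the torn vessels and the inflammation that follows. Neutrophils come first, monocytes and macrophages clear the debris, and in a closed fracture cartilage then fills the gap before bone replaces it. In mice, miR-223 is made in the myeloid lineage and limits the output and activation of neutrophils. miR-142 is made in nearly all blood cell lineages and its hairpin gives rise to a pair of abundant mature strands. miR-150 marks mature B and T cells, where it represses the transcription factor Myb.

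The mature sequences of 3 of the 4 miRNAs are shown, as those the probes are named for. Probe sequences and cross-reaction between probes were not examined. The seed (bases 2 to 8, the stretch that selects target mRNAs) is in capitals. Sequences and positions are those of RefSeq for the rat build GRCr8. The RefSeq sequences used held no entry for miR-150-5p, so its sequence is not shown.
rno-miR-223-3p (chrX:65151450-65151470, plus strand): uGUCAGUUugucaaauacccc
rno-miR-142-3p (chr10:73055155-73055177, plus strand): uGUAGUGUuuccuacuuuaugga
rno-miR-142-5p (chr10:73055119-73055139, plus strand): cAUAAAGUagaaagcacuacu
The 3 seeds differ from each other. Of the 653 array miRNAs whose names matched a RefSeq mature sequence, 0 others had any of these seeds. Their GC contents were 42.9%, 34.8% and 33.3%, against a median of 47.6% over the matched miRNAs (quartiles 40.9% and 54.5%).

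Both strands of miR-142 come from 1 hairpin, printed here with the mature strands in capitals because the pair is compared below.
Mir142 hairpin (chr10:73055104-73055190, plus strand): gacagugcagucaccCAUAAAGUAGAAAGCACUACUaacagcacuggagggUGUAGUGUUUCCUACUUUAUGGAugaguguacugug
The hairpin of miR-223 is shown likewise, since the array also held a probe for its other strand.
Mir223 hairpin (chrX:65151383-65151492, plus strand): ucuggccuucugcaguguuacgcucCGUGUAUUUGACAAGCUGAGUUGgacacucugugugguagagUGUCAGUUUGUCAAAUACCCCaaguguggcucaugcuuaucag
In the RefSeq annotation, Mir142 overlapped the gene Tspoap1 and lay between Supt4h1 and Mpo, the gene of the neutrophil enzyme myeloperoxidase. Mir223 overlapped a long non-coding RNA gene between Msn and Vsig4.

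Levels are blank-corrected intensities. The mean of the blank spots was subtracted from each spot, and every array was then multiplied by 1 factor that brought the median of the 400 miRNAs found on all arrays to 100. They are on a linear scale and are compared between arrays for 1 probe at a time, apart from the summed levels of marker lists, which bright probes dominate. A miRNA was called detected where its spot exceeded the blank mean by 2 SD of the blank spots, a level of at most 11.9 on any array. Of all miRNAs, 66.3% to 77.0% were detected per array. The diabetic day 11 array was the dimmest, with a first spike control at 14455 above the blanks against 31799 to 35962 on the other 3. After each ± stands a technical error on the log2 scale, built from the spread of the spike-control spots and of the blank spots. Variation among animals, among pools and among hybridisations is not in it. A difference is called larger than the technical error where it exceeded 2 such errors, which does not show that it would recur in other animals.

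Control callus of day 5 held the highest level of each of the 4 miRNAs, and control callus of day 11 the lowest. rno-miR-223-3p, the myeloid member, was at 789 in diabetic and 598 in control callus on day 11, and at 3130.4 in diabetic and 5675 in control callus on day 5. All 3 steps in its order of levels exceeded the technical error, and the whole range was 9.49-fold. Of the 4 miRNAs it had the widest range.

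rno-miR-142-3p was at 292 in diabetic and 264 in control callus on day 11, and at 784 in diabetic and 1168 in control callus on day 5. rno-miR-142-5p, the opposite strand of that hairpin, was at 275 in diabetic and 248 in control callus on day 11, and at 786 in diabetic and 1129 in control callus on day 5. For both strands the 2 arrays of day 11 did not differ beyond the technical error, and the other steps did. The ranges were 4.42-fold for miR-142-3p and 4.55-fold for miR-142-5p.

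rno-miR-150-5p, the lymphocyte member, was at 123 in diabetic and 119 in control callus on day 11, and at 391.8 in diabetic and 411 in control callus on day 5. Its levels fell into a low pair on day 11 and a high pair on day 5. Within each pair the diabetic and control arrays did not differ beyond the technical error. The range was 3.45-fold, the narrowest of the 4.

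**Figure D1:**
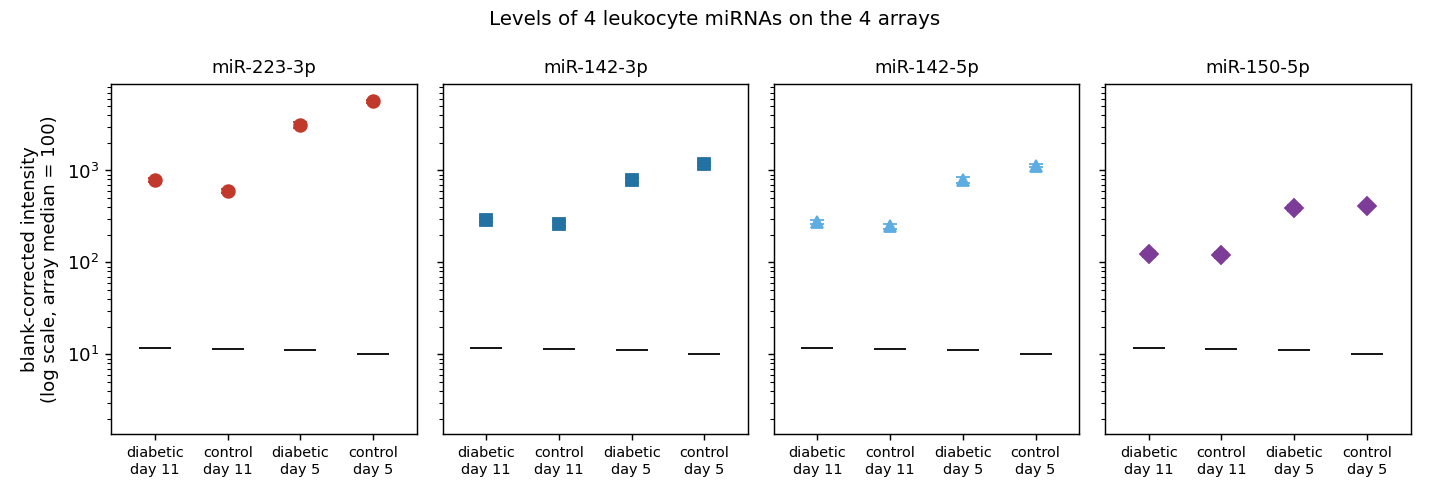
Blank-corrected intensity (log scale, median of shared miRNAs set to 100) of each of the 4 miRNAs on the 4 arrays. Points are single arrays of 5 pooled animals, bars show the technical error (mostly hidden by the points) and short black lines the detection limit; every point lies well above it, and the day 11 arrays lie below the day 5 arrays for each miRNA.

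The comparison of day 11 with day 5 in control callus describes these miRNAs over normal healing. All 4 were lower on day 11, and all 4 by more than 2-fold. With the local background corrected by limma's normexp method, an alternative described further on, miR-150-5p was at -0.93, short of 2-fold, and miR-223-3p at -4.63. Across all 446 miRNAs detected on both arrays, 6.95% were at least 2-fold lower and 13.9% differed by 2-fold in either direction. miR-223-3p was 9.49-fold lower (log2 -3.25 ± 0.10), the lowest value of the 446. miR-142-5p was 4.55-fold lower (log2 -2.19 ± 0.11) and miR-142-3p 4.42-fold lower (log2 -2.14 ± 0.10), the third and the fourth lowest. miR-150-5p was 3.45-fold lower (log2 -1.79 ± 0.12) and ranked 7 from the lowest. The median of the 4 was -2.16, against 0.028 over all 446 miRNAs. In whole tissue, fewer leukocytes and less of a miRNA per leukocyte cannot be told apart.

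In diabetic callus the same comparison also placed all 4 lower on day 11 by more than 2-fold, where 8.11% of 444 miRNAs were that much lower, 3.83% that much higher and 11.9% either. miR-223-3p was 3.97-fold lower (log2 -1.99 ± 0.12) and ranked 4 from the lowest. miR-150-5p came next at 3.18-fold lower (log2 -1.67 ± 0.14), ahead of miR-142-5p at 2.86-fold (log2 -1.52 ± 0.12) and miR-142-3p at 2.69-fold (log2 -1.43 ± 0.12). The median of the 4 was -1.59, against 0.0065 over all 444.

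The diabetic callus was then set against control callus of the same day. On day 5 all 4 miRNAs had negative differences, 3 of them larger than the technical error, and 0 reached 2-fold. Of all 468 miRNAs, 45.1% were lower and 14.1% were lower by more than the technical error. At the 2-fold limit, 2.56% were at least 2-fold lower, 4.27% at least 2-fold higher and 6.84% either. miR-223-3p was 1.81-fold lower in diabetic callus (log2 -0.86 ± 0.11) and ranked 17 from the lowest. miR-142-3p was 1.49-fold lower (log2 -0.58 ± 0.11), and miR-142-5p 1.44-fold lower (log2 -0.52 ± 0.11). miR-150-5p had a difference of -0.070 ± 0.11, within the technical error. The members' median was -0.55, against 0.038 over all 468.

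On day 11 the 4 differences between diabetic and control callus were positive and small, and 0 of them reached 2-fold, where 3.93% of 433 miRNAs were that much higher, 4.85% that much lower and 8.78% either. Of the 433, 52.7% were higher and 20.6% were higher by more than the technical error. miR-223-3p was 1.32-fold higher in diabetic callus (log2 0.40 ± 0.11), which exceeded the technical error. miR-142-5p (0.15 ± 0.12), miR-142-3p (0.14 ± 0.12) and miR-150-5p (0.049 ± 0.15) did not exceed it. With no scaling between arrays, which shifted the median of all miRNAs by -1.33, all 4 differences on this day were negative. With normexp on the local background miR-223-3p was at 1.05, past 2-fold, and miR-142-3p, miR-142-5p and miR-150-5p were at -0.14, -0.41 and -0.18. The members' median of 0.14 compares with 0.034 over all 433.

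**Figure D2:**
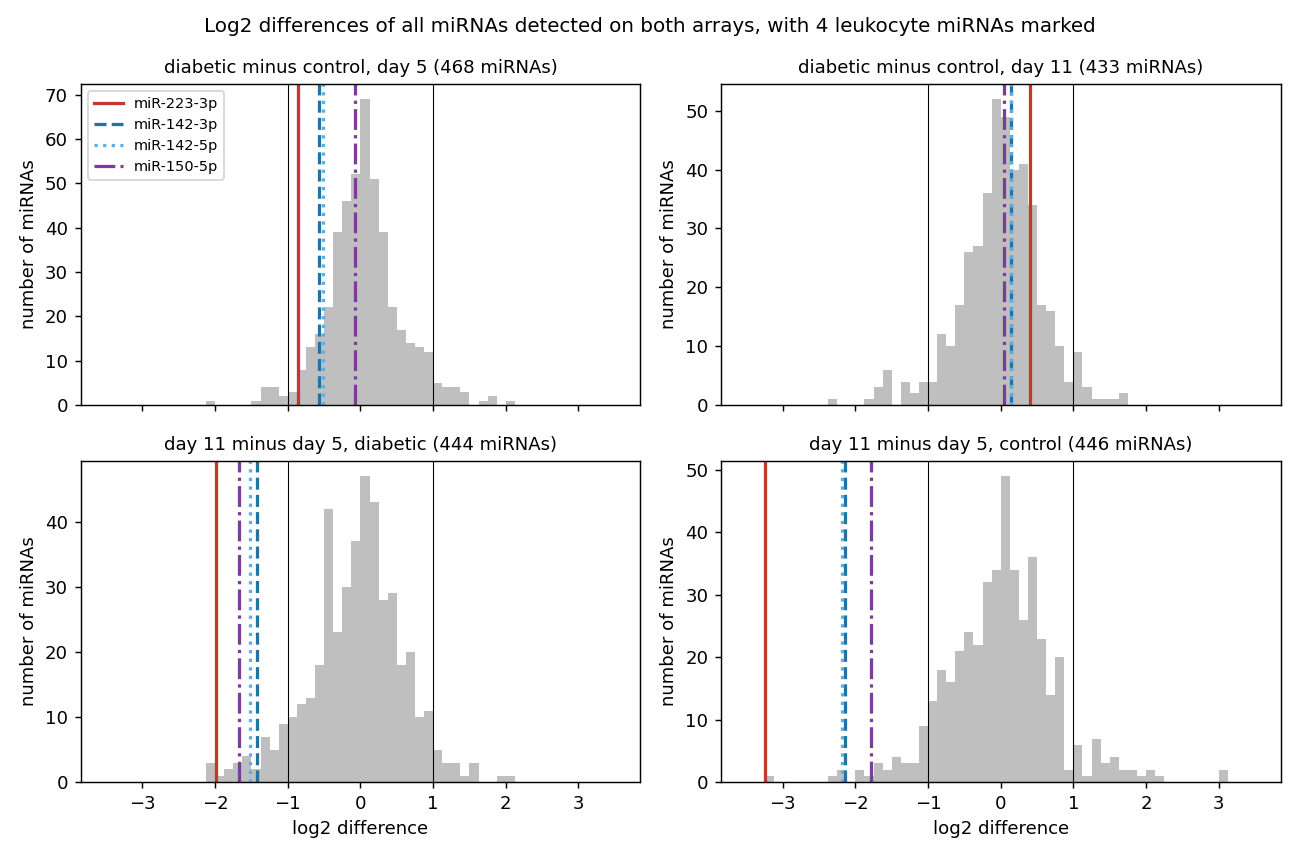
Histograms of the log2 difference of every miRNA detected on both arrays of a comparison (number of miRNAs on the vertical axis), with the 4 leukocyte miRNAs as coloured lines and 2-fold limits as thin black lines. The 4 lines lie beyond the lower 2-fold limit in both comparisons of day 11 with day 5, between it and 0 on day 5, and just above 0 on day 11.

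All 4 miRNAs had a negative difference between diabetic and control callus on day 5 and a positive one on day 11, signs that 21.5% of the 400 miRNAs detected on all arrays had. The difference between the days was smaller in diabetic than in control callus for 3 of the 4 miRNAs. The day difference in diabetic callus minus that in control callus was 1.26 ± 0.16 for miR-223-3p, 0.72 ± 0.16 for miR-142-3p, 0.67 ± 0.16 for miR-142-5p and 0.12 ± 0.19 for miR-150-5p. The last was within the technical error, and 19.2% of 400 miRNAs had a positive value beyond it. Only miR-223-3p of the 4 exceeded 1 on this log2 scale, ranking 10 from the highest among 400 miRNAs, of which 4.75% reached 1. Its value was 2.08 with normexp on the local background, 0.89 with the authors' deposited values and 0.18 without scaling between arrays, so that it was under 1 in the last 2. The median of the 4 was 0.69, against 0.038 over the 400. This value uses every array and has no replicate check, and without scaling between arrays its median was -0.39.

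The members' differences were unequal in size by the pair counts below. The same counts were not made over pairs of other miRNAs, so they do not show a trait particular to the members. Differences between 2 members on the same 2 arrays are free of the scaling between arrays. In the control comparison of days, 5 of the 6 pairs of members differed by more than the technical error, with log2 differences of miR-223-3p minus those of the others of -1.10 ± 0.15 (miR-142-3p), -1.06 ± 0.15 (miR-142-5p) and -1.46 ± 0.16 (miR-150-5p). In the diabetic comparison of days 2 of 6 pairs did so, both of them miR-223-3p against a strand of miR-142, by -0.56 ± 0.17 and -0.47 ± 0.17. On day 5, diabetic minus control, 4 of 6 pairs did. There miR-150-5p stood apart from each of the other 3, with differences of -0.79 ± 0.16 for miR-223-3p minus miR-150-5p, -0.51 ± 0.16 for miR-142-3p minus miR-150-5p and -0.45 ± 0.16 for miR-142-5p minus miR-150-5p. On day 11, 0 of 6 pairs did. With normexp on the local background, miR-223-3p minus the others on day 11 was 1.19 (miR-142-3p), 1.46 (miR-142-5p) and 1.23 (miR-150-5p). The pairs without miR-223-3p lay between -0.23 and 0.27 there.

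The pair of strands from the miR-142 hairpin shown above did not part by more than the technical error in any of the 4 comparisons. Their differences were unequal by -0.054, -0.0060, 0.091 and 0.043 in the comparisons of diabetic with control on day 5, of diabetic with control on day 11, of the days in diabetic and of the days in control callus, each with a technical error of 0.15 to 0.18. With normexp on the local background they parted by 0.35 between the days in diabetic callus. The likeness of 2 patterns was measured as the root mean square distance between log2 levels over the 4 arrays, after each miRNA was centred on its mean. For the 2 strands it was 0.039, and each was the nearest of 399 other miRNAs to the other. The median distance from the members' mean pattern over the 400 miRNAs detected on all arrays was 1.04. From miR-150-5p the distance was 0.17 to miR-142-5p and 0.54 to miR-223-3p, and the miRNA nearest to miR-223-3p was miR-142-5p at 0.41.

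By the same measure over 4 arrays, the 6 miRNAs outside the group nearest to the members' mean pattern were miR-499-5p (0.13), miR-7a-5p (0.22), miR-1-3p (0.27), miR-133b-3p (0.27), miR-133a-3p (0.29) and miR-18a-5p (0.38). miR-1, miR-133 and miR-499 are miRNAs of muscle, and miR-18a belongs to a cluster active in dividing cells. miR-499-5p, for example, was at 66.1 in diabetic and 50.9 in control callus on day 11, and at 159 in diabetic and 253 in control callus on day 5, which is the order of the members. miR-1-3p was at 2564 in diabetic and 2767 in control callus on day 11, and at 8787 in diabetic and 8527 in control callus on day 5, so that it shared the contrast between the days but was not lower in diabetic callus on day 5. The members themselves lay at distances of 0.073 (miR-142-5p), 0.11 (miR-142-3p), 0.21 (miR-150-5p) and 0.34 (miR-223-3p) from their own mean, which they help to set. miR-499-5p and the miR-1 and miR-133 miRNAs lay nearer to it than miR-223-3p did. These distances used the main levels only. Between the days miR-7a-5p was at -1.78 in diabetic and -1.91 in control callus. With normexp on the local background it was at 0.017 and -0.59. Its day 11 spots were 4.6 (diabetic) and 4.1 (control) blank SDs above the blank mean. With normexp miR-499-5p went from -1.27 to -0.54 in diabetic callus and stayed past 2-fold in control callus. The miR-1 and miR-133 miRNAs stayed past 2-fold in both groups, and miR-18a-5p in control callus.

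The other strands of the hairpins gave a contrast. miR-223-5p, the opposite strand of miR-223-3p, was above the detection limit on the day 5 arrays alone, at 14.1 in diabetic and 13.5 in control callus, both close to that limit. miR-150-3p, the opposite strand of miR-150-5p, was detected on all arrays, at 66.0 in diabetic and 78.2 in control callus on day 11 and at 65.7 in diabetic and 81.3 in control callus on day 5. Its difference between the days was 0.0068 ± 0.22 in diabetic and -0.055 ± 0.17 in control callus, both within the technical error, whereas its partner strand was more than 3-fold lower on day 11 in both groups. With normexp on the local background the strands of miR-150 were closer, at -0.48 for miR-150-3p and -0.93 for miR-150-5p between the days in control callus.

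A list of 13 further miRNAs of lymphocytes, monocytes and macrophages was examined in the same way. In control callus, 10 were detected on both days, of which 6 were lower and 4 higher on day 11 and 1 lower by more than 2-fold, with a median of -0.42 against -2.16 for the 4 members. That miRNA was miR-146a-5p, which is induced by NF-kB and damps inflammatory signalling, at 484 on day 11 and 1022 on day 5 (log2 -1.08 ± 0.10). With normexp on the local background its difference was 0.067. Its relative miR-146b-5p was at 358 on day 11 and 630 on day 5 (log2 -0.81 ± 0.10, and 0 with normexp on the local background). miR-155-5p, which lymphocytes and macrophages make on activation, had the opposite sign, at 95.0 on day 11 and 71.5 on day 5 (log2 0.41 ± 0.17). In diabetic callus 5 of 8 were lower and 3 higher on day 11, with a median of -0.17 and 0 at 2-fold.

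Between diabetic and control callus this wider list showed no common direction. On day 5, of the 10 detected on both arrays, 5 were lower and 5 higher, with a median of 0.092. On that day miR-146b-3p (33.2) and miR-147 (13.4) were detected in control callus alone, and so were on the lower side in diabetic callus. miR-146a-5p was at 654 in diabetic and 1022 in control callus (log2 -0.65 ± 0.11, and -0.20 with normexp). miR-155-5p was at 102 in diabetic and 71.5 in control callus (log2 0.52 ± 0.17). miR-342-3p, found in lymphocytes and monocytes, was at 110.1 in diabetic and 93.5 in control callus (0.23 ± 0.15). Its other strand miR-342-5p was at 34.2 in diabetic and 59.8 in control callus (-0.81 ± 0.29), the lowest difference of those 10. miR-511-3p, made from an intron of the macrophage mannose receptor gene, was at 89.9 in diabetic and 93.2 in control callus (-0.052 ± 0.16). On day 11, 5 of 9 were lower and 4 higher, with a median of -0.035, and miR-146b-3p was again detected in control callus alone, at 16.7. Of the 13, miR-155-3p was detected on 0 arrays, and miR-146a-3p, miR-146b-3p and miR-511-5p on 2 each.

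Markers of other cells in the callus were set beside the members. The 4 members had a summed level of 1479 in diabetic and 1230 in control callus on day 11, and of 5092 in diabetic and 8383 in control callus on day 5. Of 4 erythroid miRNAs 3 were on the array, and those detected summed to 1556 in diabetic and 1591 in control callus on day 11, and to 1460 in diabetic and 512 in control callus on day 5. The sum on the diabetic day 5 array includes miR-144-5p, at 14.9, which was detected on no other array. miR-451-5p and miR-144-3p, made together in red cell precursors, were thus higher in diabetic callus on day 5 (log2 1.48 ± 0.11 and 1.74 ± 0.31), where the leukocyte members were lower. With normexp on the local background these values were 1.19 for miR-451-5p and 0.51 for miR-144-3p. Both were also higher on day 11 than on day 5 in control callus (log2 1.62 ± 0.10 and 1.85 ± 0.30), again opposite to the members. Likewise with normexp, the day difference in control callus was -2.27 for miR-451-5p, whose local background on the control day 11 array was 97.0% of the spot, and 0.22 for miR-144-3p. Their part in the members' result was not tested.

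All 5 skeletal muscle miRNAs were detected on every array, and all 5 were at least 2-fold lower on day 11 in both groups. Of all miRNAs, 8.11% in diabetic and 6.95% in control callus were that much lower. With normexp on the local background miR-499-5p was at -0.54 in diabetic callus, short of 2-fold. The summed level of the muscle miRNAs was 9999 in diabetic and 9412 in control callus on day 11, against 29676 in diabetic and 28356 in control callus on day 5. They therefore moved with the members between the days, and their part in the members' result was not tested. Between diabetic and control callus on day 5 the muscle median was 0.052, against -0.55 for the members. The lists overlapped, with muscle values from -0.66 (miR-499-5p) to 0.11 and members' values from -0.86 to -0.070 (miR-150-5p). The 2 endothelial strands miR-126a-3p and miR-126a-5p had a median of -0.32 on that day and of -0.85 between the days in control callus, the signs of the members, and their part was not tested either. The 6 cartilage miRNAs were all detected. Their sum was 5825 in diabetic and 18426 in control callus on day 11, against 2756 in diabetic and 2512 in control callus on day 5. Between the days their median was 0.33 in diabetic callus, with 2 of 6 at least 2-fold higher and 1 at least 2-fold lower. In control callus the cartilage median was 2.08, with 4 of 6 at least 2-fold higher and 0 lower. The 3 mesenchymal miRNAs had medians of 0.50 in diabetic and 0.32 in control callus between the days, and of -0.25 in control callus with normexp. miR-21-5p, abundant in inflamed tissue, was at 24454 in diabetic and 18534 in control callus on day 11 and at 25787 in diabetic and 33896 in control callus on day 5.

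**Figure D3:**
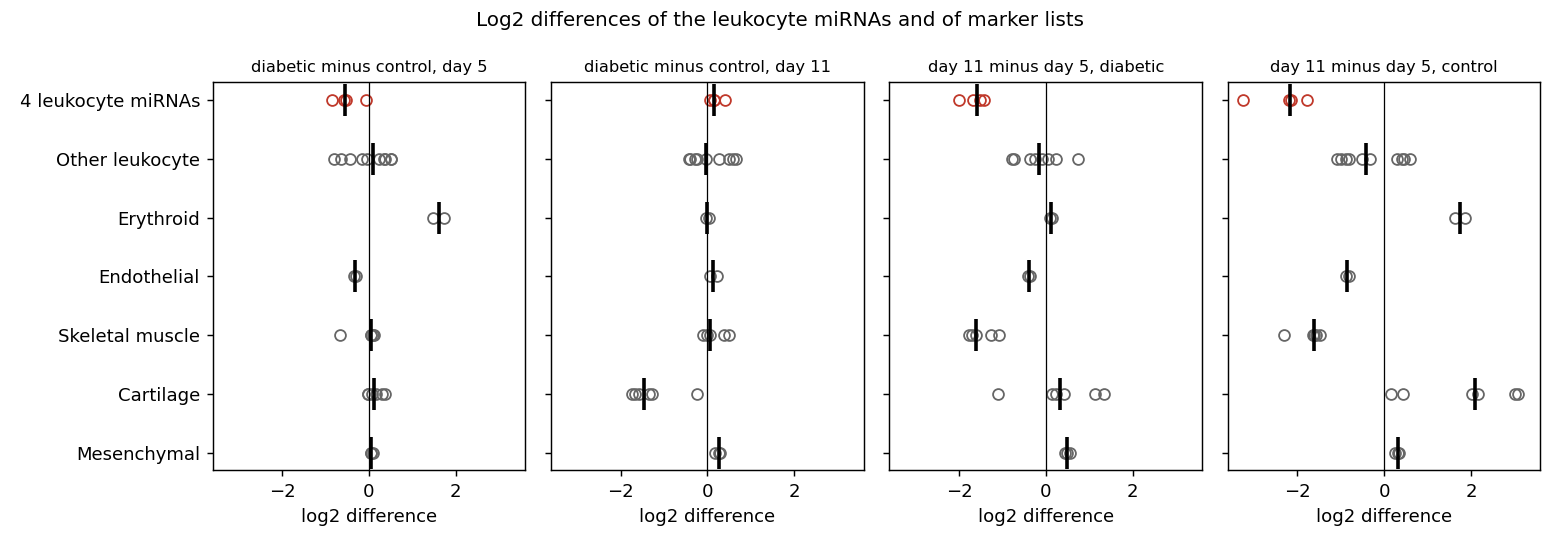
Log2 differences (horizontal axis) of single miRNAs detected on both arrays (open circles) and their median (black bar) for the 4 leukocyte miRNAs (red) and the marker lists, in the 4 comparisons. On day 5 the erythroid miRNAs lie opposite to the 4 leukocyte miRNAs, and between the days the skeletal muscle miRNAs lie on their side.

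The scanner also recorded the intensity around each spot, the local background, which the main levels do not use. The local background was 35.2% to 80.2% of the spot for the members on the day 11 arrays, against 3.18% to 33.1% on the day 5 arrays. The highest was that of miR-223-3p on the control day 11 array. Across all miRNAs the local background followed the uncorrected spot intensity (Pearson r of log2 values of 0.889, 0.953, 0.758 and 0.808 on the diabetic day 11, control day 11, diabetic day 5 and control day 5 arrays, as a description across probes of 1 array). An uncorrected spot can itself contain background, so this r cannot tell which background correction is right. The members were 20.8 to 133 blank SDs above the blank mean on day 11 and 69.8 to 1132 on day 5. When the local background was corrected with limma's normexp method and the arrays were quantile-normalised, miR-223-3p differed by -2.55 between the days in diabetic callus and by -1.04 between diabetic and control callus on day 5. With that correction miR-150-5p differed by 0.019 between diabetic and control callus on day 5. The strands of miR-142 stayed lower on day 11, with -1.61 for miR-142-3p and -1.71 for miR-142-5p in control callus. In diabetic callus these values were -1.07 and -1.43 in the same order.

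**Figure D4:**
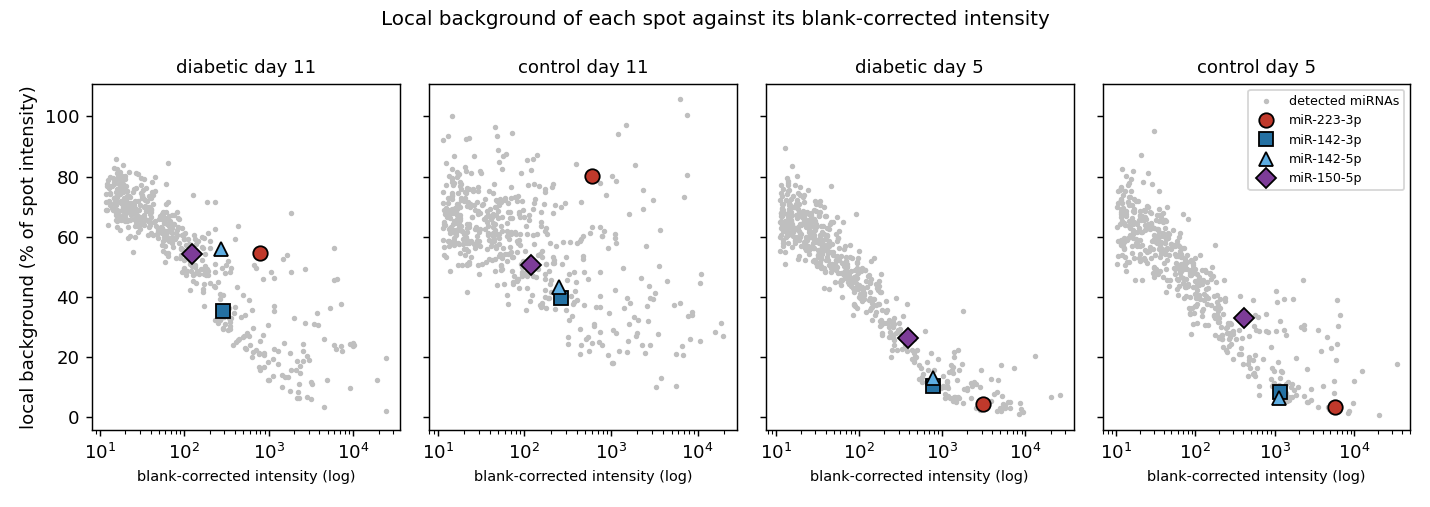
Local background as a percentage of the spot intensity (vertical axis) against blank-corrected intensity (log scale) for detected miRNAs (grey) and the 4 leukocyte miRNAs (coloured) on each array. The members lie between 35.2% and 80.2% on the day 11 arrays, and at 33.1% or less on the day 5 arrays.

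**Figure D5:**
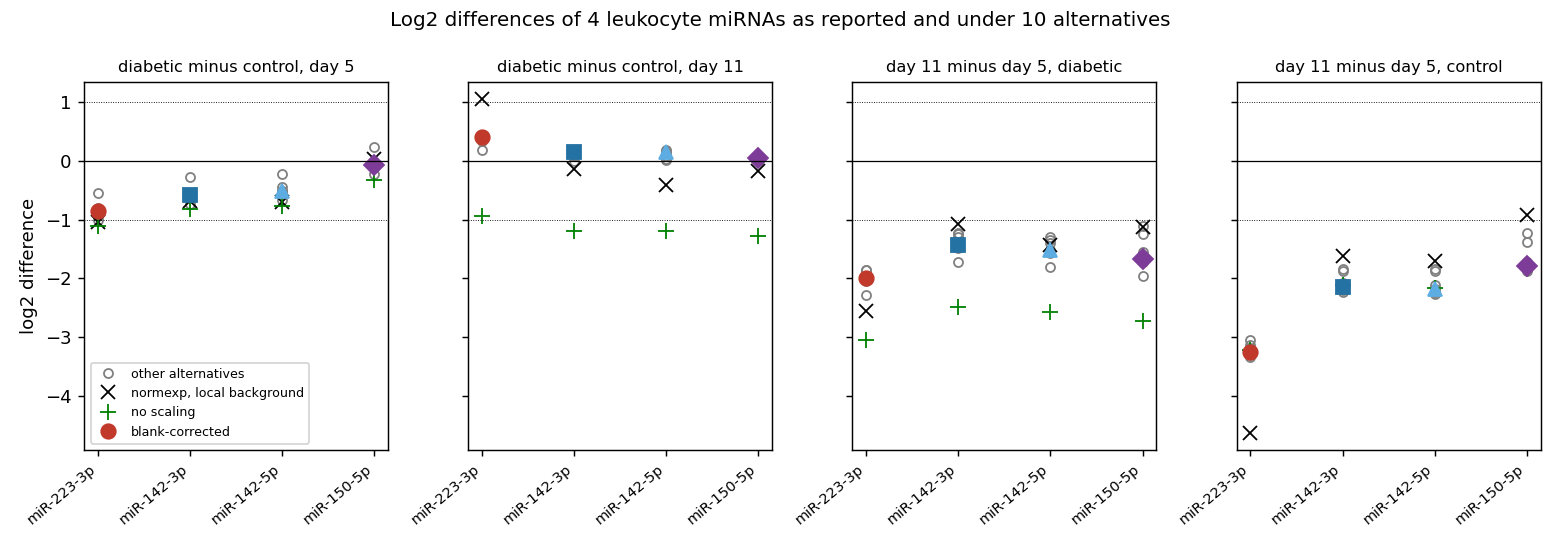
Log2 difference (vertical axis) of each of the 4 miRNAs in the 4 comparisons, as reported (coloured symbols) and under the 10 alternatives (crosses for the local background, plus signs for no scaling between arrays, open circles for the rest); dotted lines mark 2-fold. All values lie below 0 for the differences between days, and the values on day 11 between diabetic and control callus lie on both sides of 0.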

How the data were processed

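Per the labels' protocols, callus of 5 animals per group and day was pooled, and total RNA was extracted and labelled with Cy5 for a 3D-Gene array. Per the file headers, the deposited scanner files hold the median intensity of each spot and of its local background at 635 nm, with no background subtracted. The authors' deposited value table holds 1 linear intensity per miRNA and array. How it was made is not given in the sources used here. Set against the scanner files, each value was the spot minus the blank mean times 1 factor per array (largest deviation 0.114%), with the median of each column at 25.

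Each array had 727 miRNA probes with 1 spot each and 1504 blank spots, whose mean and SD left out the highest and lowest 5%. The number of arrays limits the precision. On the control day 5 array, 1 spike-control spot that the scanner marked as unusable was left out. Main levels and technical errors are defined with the results. The fold limit was 2. Local-background normexp (limma 3.58.1, R 4.3.3, offset 50) was not the main setting because the local background followed the spot. That does not show which of the settings is the more accurate. Alternatives covered background, scaling, detection limit and the deposited values. Removing the detection filter left the members unchanged, as each was detected on every array. Scaling, the limit of 3 SD and the deposited values multiply a whole array by 1 factor. Only the background alternatives could therefore move a member relative to the other miRNAs of its array. Differences were computed with Python 3.11.15 and tested on simulated data.

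The named miRNAs are the 4 members, their other strands, 13 other leukocyte miRNAs, the 6 nearest patterns, the marker lists and miR-21-5p. miRNAs sharing a seed with 1 of the 3 members of known sequence would have been named, and there were 0 among the 653 matched array miRNAs. The seed of miR-150-5p was not searched, for want of its sequence. Members and lists were chosen with earlier results of these data known.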

Additional observations from a re-analysis of the deposited data

Results flagged for a closer look

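For all 4 miRNAs the difference between diabetic and control callus had opposite signs on the 2 days, negative on day 5 and positive on day 11. Over the 400 miRNAs detected on all arrays, 21.5% had these signs. The difference on day 11 minus that on day 5 was 1.26 for miR-223-3p, 0.72 for miR-142-3p, 0.67 for miR-142-5p and 0.12 for miR-150-5p on the log2 scale. With 1 array per group and day this difference was not tested. For miR-223-3p both days exceeded the technical error, for miR-142-3p and miR-142-5p day 5 did and day 11 did not, and for miR-150-5p neither did. With local-background normexp the day 11 differences of miR-142-3p, miR-142-5p and miR-150-5p were -0.14, -0.41 and -0.18.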

How the results depend on the processing

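The differences between the days kept their sign for all 4 miRNAs under all 10 alternatives, and stayed at least 2-fold except for miR-150-5p in control callus (-0.93 with local-background normexp). Of 160 single values over the 10 alternatives, 149 had the sign reported. The 16 with no detection filter could not differ. The number of the 4 miRNAs that were 2-fold different between diabetic and control callus on day 5 was 0 as reported and 1 with local-background normexp, spike-control scaling or no scaling. On day 11 it was 0 as reported, 1 with local-background normexp and 3 with no scaling. The median difference of the day courses was 0.69 as reported, 0.41 with local-background normexp, 0.86 with spike-control scaling, 0.33 with the authors' deposited values and -0.39, reversed, with no scaling. The further difference of miR-223-3p from the median of the other members in control callus was -1.10, with -3.02 under local-background normexp and -1.28 with no background subtraction. The median of the other leukocyte miRNAs in control callus was -0.42, with -0.0034, -0.16 and -0.10 under normexp on the local background, normexp on the blank mean and no background subtraction. The cause of these differences was not tested, beyond the shifts of whole arrays that follow. With no scaling, the median miRNA shifted by -0.25 on day 5, -1.33 on day 11 and -1.06 between the days in diabetic callus. With spike-control scaling it shifted by -0.15 on day 5 and 0.13 between the days in diabetic callus, and with the authors' deposited values by 0.30 and -0.29. With no background subtraction it shifted by -0.12 on day 11. With the deposited values, miR-150-5p differed by 0.23 on day 5 and by -0.070 relative to the shift. Of all miRNAs, 32, 38, 53 and 62 were 2-fold different on day 5, on day 11, between the days in diabetic and between the days in control callus. In the same order these counts were 2, 28, 16 and 45 with local-background normexp, 1, 8, 15 and 24 with normexp on the blank mean, 2, 5, 12 and 22 with no subtraction, 34, 318, 247 and 58 with no scaling, 52, 34, 70 and 60 with the deposited values, and 218, 223, 256 and 242 with no detection filter. A limit of 3 SD gave 18 on day 5. As reported, 20 were higher and 12 lower on day 5, 17 and 21 on day 11, 17 and 36 between the days in diabetic and 31 and 31 in control callus. With spike-control scaling 15 were higher and 17 lower on day 5, and 28 and 27 between the days in diabetic callus. With no scaling the splits were 11 and 23, 0 and 318, and 0 and 247 in the first 3 comparisons. Upper-quartile scaling gave 27 and 41 between the days in control callus, and the deposited values gave 47 and 5 on day 5 and 8 and 62 between the days in diabetic callus. The blank mean of the probe's own block, an alternative chosen after seeing the data, moved none of the summaries of the 4 members beyond the technical error. No paired analysis was possible because the labels give no replicate numbers and each comparison has 1 array a side, so no replicate could be left out either. A fit of additive day and diabetes terms over the 4 arrays was not run.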
